A study of Mus musculus with 9 samples.

Results

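The genes of the translation initiation factors were followed in mouse embryonic fibroblasts during reprogramming, with and without overexpressed Zscan4f or Zscan4f3A. Members were the genes whose symbol begins with Eif1 to Eif6. Of 62 such names, 6 belong to pseudogenes and were left out, and 2 more, Eif4e1b and Eif2c5, were below the filter, which asked for 1 TPM or more in 3 or more of 9 libraries. The remaining 54 genes were among 15837 genes that passed this filter, and all 54 are annotated as protein coding in GENCODE M21. TPM is a relative abundance corrected for transcript length and scaled to the same total in every library. The lowest members inside the filter were Eif4ebp3, with a mean of 1.73 TPM, and Eif4e3, with 4.24 TPM, while the highest value of Eif4e1b in any library was 0.340 TPM and that of Eif2c5 was 0.0679 TPM.

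Total RNA of primary mouse embryonic fibroblasts was sequenced. The strain was C57BL/6, and the samples carry the name D4-OSKM-2ndMEFs. The 3 groups had 3 libraries each and were cells overexpressing Zscan4f, cells overexpressing Zscan4f3A and control cells. OSKM, the usual name for Oct4, Sox2, Klf4 and Myc, stands in the label of all 9 libraries, so as far as the labels say control means OSKM without an overexpressed Zscan4f form. The control titles name no vector, and the sources used here give neither the change in Zscan4f3A nor the promoter of any transgene. Zscan4f encodes a zinc finger protein with a SCAN domain, known from the early mouse embryo and from embryonic stem cells. Nothing states that the libraries of a group came from separate cultures, so p-values measure the spread between these libraries, which may be technical.

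Translation initiation brings the small ribosomal subunit, the initiator tRNA and an mRNA together at a start codon. eIF2 carries the initiator tRNA as a GTP-bound complex, eIF2B recharges eIF2 with GTP, and kinases that phosphorylate the alpha subunit of eIF2 block that recharging under stress. The eIF4 factors select capped mRNA and unwind its leader, eIF3 holds the parts together on the small subunit, and eIF1, eIF1A, eIF5 and eIF5B govern start codon choice and the joining of the large subunit. Several of these steps are limiting in growing cells, and eIF4E-binding proteins, themselves controlled by the kinase complex mTORC1, set how much eIF4E is free.

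Promoter sequences from RefSeq (GRCm38.p6) are shown for 4 members on which the comparisons below turn: Eif2s2, Eif4a1 and Eif3l, which were higher with Zscan4f, and Eif1b, which was lower. Each stretch runs 5′ to 3′ on the strand of its gene, with 200 bases before and 20 bases after the RefSeq start. Capitals mark CACGTG, the E-box to which Myc-family factors bind, and CCGGAA or its reverse complement TTCCGG, the core of many ETS-factor sites. The stretches are chr2:154892887-154893106 on the minus strand, chr11:69672404-69672623 on the minus strand, chr15:79075023-79075242 on the plus strand and chr9:120492406-120492625 on the plus strand.
Eif2s2: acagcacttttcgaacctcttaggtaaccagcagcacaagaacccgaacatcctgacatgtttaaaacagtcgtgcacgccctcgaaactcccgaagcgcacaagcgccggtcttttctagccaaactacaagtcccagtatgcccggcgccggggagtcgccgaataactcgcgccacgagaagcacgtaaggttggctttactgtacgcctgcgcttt
Eif4a1: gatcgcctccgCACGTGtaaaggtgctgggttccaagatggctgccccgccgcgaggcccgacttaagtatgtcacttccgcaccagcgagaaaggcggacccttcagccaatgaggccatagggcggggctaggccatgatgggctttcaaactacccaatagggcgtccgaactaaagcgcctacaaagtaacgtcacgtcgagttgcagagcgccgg
Eif3l: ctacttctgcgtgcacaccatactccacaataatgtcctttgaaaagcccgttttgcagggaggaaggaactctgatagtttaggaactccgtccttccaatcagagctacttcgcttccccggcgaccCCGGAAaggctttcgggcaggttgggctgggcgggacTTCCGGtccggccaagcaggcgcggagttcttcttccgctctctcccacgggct
Eif1b: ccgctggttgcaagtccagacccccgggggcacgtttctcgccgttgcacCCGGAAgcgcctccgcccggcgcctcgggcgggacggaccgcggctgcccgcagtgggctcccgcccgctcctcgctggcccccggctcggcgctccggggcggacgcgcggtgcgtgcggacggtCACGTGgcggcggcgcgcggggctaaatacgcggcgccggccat
The Eif2s2 stretch held neither motif. The Eif4a1 stretch held CACGTG starting at position -189, and the Eif3l stretch held CCGGAA at -71 and TTCCGG at -34. The Eif1b stretch held CCGGAA at -150 and CACGTG at -24, and its RefSeq start lies 374 bases from the start in the deposited files.

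A RefSeq window of 250 bases before to 50 after the start was matched by symbol for 43 of the 54 members. There was none for Eif1a, Eif2b3, Eif3e, Eif3h, Eif3i, Eif3j2, Eif4e3, Eif4ebp1, Eif4ebp3, Eif4g2 and Eif6. CACGTG, which reads the same on both strands, occurred in 8 of 43 member windows (18.6%) and in 7.24% of the first windows of 27025 genes. CCGGAA on either strand occurred in 20 of 43 member windows (46.5%) and in 15.2% of those first windows. The sets are unlike, since all members passed the TPM filter and the 27025 genes were not filtered. For members the window nearest the start in the deposited files was taken. Of the 43 members with a window, 11 were called higher in at least 1 comparison, and of these 2 held CACGTG (18.2%) and 4 held CCGGAA (36.4%). Another 30 members with a window were called in no comparison, and of these 5 held CACGTG (16.7%) and 14 held CCGGAA (46.7%). These are counts of letters in a window and not sites of binding.

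Aligned sequence per library, estimated from the ratio of coverage to FPKM, ran from 7.48 to 8.39 gigabases with Zscan4f, from 3.31 to 8.38 with Zscan4f3A and from 6.60 to 8.26 in control, and Zscan4f3A replicate 3 was the shallowest. Zscan4f itself was at 570.0, 565 and 558 TPM in the Zscan4f libraries, 827, 836 and 654 TPM in the Zscan4f3A libraries and 0.330, 0 and 0.960 TPM in the control libraries, as the labels say. The 16 fibroblast markers were all above the filter, with summed levels of 17961 to 18191 TPM with Zscan4f, 17815 to 18339 TPM with Zscan4f3A and 18102 to 18211 TPM in control. Epithelial markers, of which 10 of 15 passed the filter, summed to 330 to 335 TPM with Zscan4f, 153 to 158 TPM with Zscan4f3A and 139 to 143 TPM in control. Macrophage markers, 4 of 8 above the filter, summed to 26.2 to 27.7 TPM with Zscan4f, 18.4 to 20.6 TPM with Zscan4f3A and 18.7 to 21.6 TPM in control. Endothelial markers, 4 of 8 above the filter, summed to 60.9 to 64.3 TPM with Zscan4f, 46.0 to 51.1 TPM with Zscan4f3A and 46.9 to 49.3 TPM in control, and neural markers, 5 of 8, to 371 to 382 TPM with Zscan4f, 401 to 404 TPM with Zscan4f3A and 385 to 401 TPM in control. No marker was at 0 in all libraries (0 genes). Among the markers above the filter, limma called 4 of 16 fibroblast markers higher and 8 lower with Zscan4f against control, and 8 of 10 epithelial markers higher and 1 lower. It called 1 of 4 macrophage markers higher and 1 lower, 2 of 4 endothelial markers higher and 1 lower, and 3 of 5 neural markers higher and 1 lower, where 18.5% of all genes were called in either direction. In Zscan4f3A against control 0 of these markers were called. The part of these marker differences in the results on initiation factors was not tested. In such bulk RNA, fewer cells of a type and less RNA per cell cannot be told apart.

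Single libraries stood apart within a group for several members, and 4 of them, Eif4h, Eif1, Eif3e and Eif3f, are given first. Eif4h, a helper of the helicase eIF4A, had 169.7, 166 and 168 TPM in the Zscan4f libraries, 287, 274 and 120.3 TPM in the Zscan4f3A libraries and 297, 158 and 156 TPM in the control libraries. It was between 156 and 169.7 TPM in the Zscan4f libraries and in control replicates 2 and 3, far higher in Zscan4f3A replicates 1 and 2 and control replicate 1, and lowest in Zscan4f3A replicate 3. StringTie coverage per aligned gigabase, a mean read depth, showed the same division, with 28.2, 28.3 and 28.3 in the Zscan4f libraries, 48.8, 47.5 and 17.7 in the Zscan4f3A libraries and 50.03, 26.1 and 25.3 in the control libraries. Eif1, which keeps the scanning ribosome open until a start codon is met, had 382, 382 and 392 TPM in the Zscan4f libraries, 383, 384 and 213 TPM in the Zscan4f3A libraries and 376, 376 and 381 TPM in the control libraries. Only Zscan4f3A replicate 3 fell away from the others, and its coverage of 50.9 per gigabase was also below the 84.6 to 89.1 of the other 8 libraries.

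Eif3e, a subunit of eIF3, had 337, 484 and 344 TPM in the Zscan4f libraries, 274, 288 and 262 TPM in the Zscan4f3A libraries and 428, 329 and 352 TPM in the control libraries. Zscan4f replicate 2 and control replicate 1 stood above their groups in TPM. In coverage per gigabase Eif3e was 33.3, 36.4 and 32.2 with Zscan4f, 29.99, 29.9 and 28.6 with Zscan4f3A and 31.7, 29.8 and 30.9 in control. Both Zscan4f replicate 2 and control replicate 1 stood out less on that scale. Eif3f, another subunit, had 162, 159 and 161 TPM in the Zscan4f libraries, 159, 167 and 154 TPM in the Zscan4f3A libraries and 149.5, 207 and 188 TPM in the control libraries, and control replicate 1 lay below the other control libraries. The adjusted p of these 4 members was between 0.0591 and 0.986 in all 3 comparisons. Eif3f passed for Zscan4f against control without control replicate 1 (adjusted p = 0.0113), and Eif3e passed for Zscan4f against Zscan4f3A with coverage per aligned gigabase (adjusted p = 0.0245). The lowest members also spread widely within groups. The highest library of Eif4ebp3 was 1.96 times the lowest with Zscan4f, 3.79 times with Zscan4f3A and 1.62 times in control, and that of Eif4e3 was 1.45 times the lowest with Zscan4f3A.

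**Figure D1:**
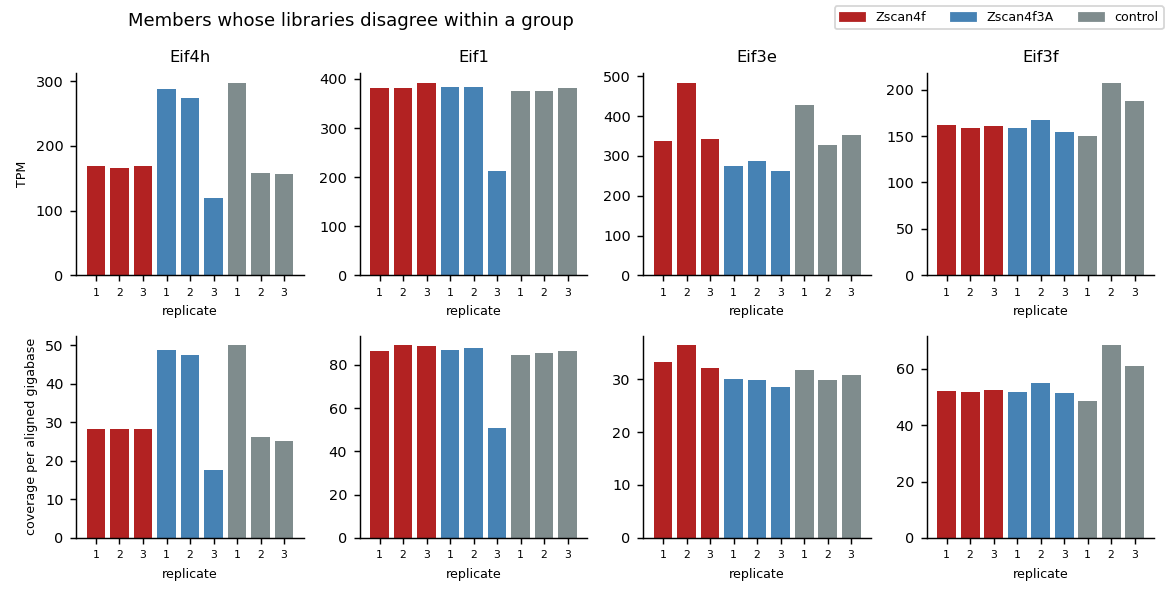
TPM (upper panels) and coverage per aligned gigabase (lower panels) of Eif4h, Eif1, Eif3e and Eif3f in each of the 9 libraries. Each bar is 1 library, with Zscan4f, Zscan4f3A and control from left to right. Eif4h divides the Zscan4f3A and control groups within themselves, and Eif1 is low in Zscan4f3A replicate 3, at 213 TPM.

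The 54 members together had a slightly higher summed level with Zscan4f. It was 8239, 8434 and 8284 TPM in the Zscan4f libraries, 7801, 7827 and 7267 TPM in the Zscan4f3A libraries and 7909.7, 7833 and 7710.1 TPM in the control libraries. Every Zscan4f library lay above every library of the other groups, and Zscan4f3A replicate 3 was the lowest. The ratio of group means was 1.06 for Zscan4f over control, 0.976 for Zscan4f3A over control and 1.09 for Zscan4f over Zscan4f3A. Without Zscan4f3A replicate 3 the ratio of Zscan4f3A over control was 1.00 and that of Zscan4f over Zscan4f3A was 1.06. In control cells the members held 0.782% of all TPM.

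By factor, eIF2 and its alternatives in tRNA delivery summed to 594 ± 6.28 TPM with Zscan4f, 499.8 ± 26.7 TPM with Zscan4f3A and 516 ± 3.60 TPM in control, and eIF2B to 229 ± 6.40 TPM with Zscan4f, 205 ± 5.94 TPM with Zscan4f3A and 205 ± 1.48 TPM in control (SD, n = 3 each). The 14 eIF3 subunit genes summed to 3059 ± 90.1 TPM with Zscan4f, 2745 ± 53.5 TPM with Zscan4f3A and 2895 ± 30.2 TPM in control, and the 4 eIF4E-binding protein genes to 226 ± 2.74 TPM with Zscan4f, 197 ± 1.96 TPM with Zscan4f3A and 202 ± 2.80 TPM in control. These 4 sums, and that of eIF5, eIF5A, eIF5B and eIF6 at 951 ± 27.4 TPM with Zscan4f, 880.2 ± 27.8 TPM with Zscan4f3A and 851 ± 28.1 TPM in control, were higher in every Zscan4f library than in any library of the other groups. The sum of the kinases of eIF2alpha, at 117 ± 4.01 TPM with Zscan4f, 113 ± 3.18 TPM with Zscan4f3A and 114 ± 4.49 TPM in control, and that of the eIF4 factors, at 2471 ± 22.2 TPM with Zscan4f, 2397 ± 151 TPM with Zscan4f3A and 2389 ± 97.00 TPM in control, overlapped between groups. The overlap of the eIF4 sums comes from Eif4h, which ran from 120.3 to 287 TPM with Zscan4f3A and from 156 to 297 TPM in control. The eIF1 and eIF1A genes summed to 671 ± 5.84 TPM with Zscan4f, 594 ± 110.3 TPM with Zscan4f3A and 645 ± 6.67 TPM in control, with every Zscan4f library above the rest and a large SD with Zscan4f3A that comes from Eif1 in replicate 3. The SD of the eIF3 sum with Zscan4f comes largely from Eif3e, at 337, 484 and 344 TPM in the Zscan4f libraries. Eif3e averaged 275 TPM with Zscan4f3A and 370 TPM in control, so it makes up part of the difference between those eIF3 sums.

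**Figure D2:**
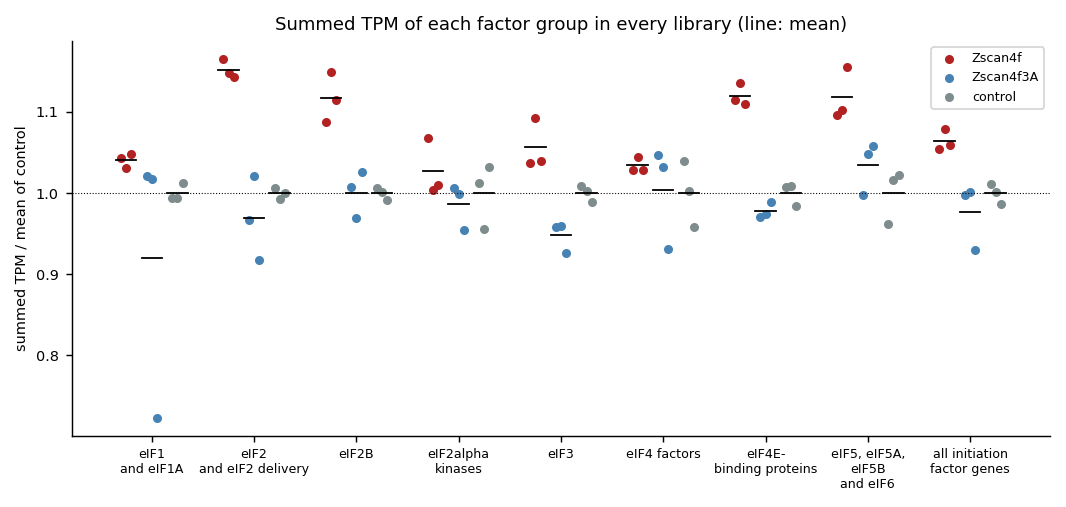
Summed TPM of each factor group divided by its mean in control, with Zscan4f, Zscan4f3A and control from left to right within each group; each point is 1 library, lines are means and the axis does not start at 0. The eIF2, eIF2B and eIF4E-binding protein sums lie higher in the 3 Zscan4f libraries than in the other 6, while the kinase sums overlap.

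Against control, 13 of the 54 members passed an adjusted p under 0.05 in cells with Zscan4f, 11 of them higher and 2 lower, by limma on log2(TPM + 1) with Benjamini-Hochberg adjustment over all genes. Of all genes 18.5% were called, with 8.74% higher and 9.71% lower, against 24.1% of the members. The members' median log2 fold change was 0.09, against -0.0029 for all genes tested, and 42 of 54 were above 0, against 49.5% of all genes. In 26 members all Zscan4f libraries lay above all control libraries and in 3 below, where the shares over all genes were 19.0% and 19.2%. The changes were small: no called member moved by more than 33.3% of its control mean. With 1 library left out the count ran from 9 to 15, and with coverage per aligned gigabase in place of TPM it was 21, of which 19 were higher. The share of all genes called under these other settings is not given, so these counts cannot be set against 18.5%.

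Against Zscan4f3A, 15 of 54 members were called in cells with Zscan4f, 14 higher and 1 lower, where 15.1% of all genes were called, 7.48% higher and 7.64% lower. Their median log2 fold change was 0.11, against 0.00 over all genes, and 48 of 54 were above 0, against 50.4% of all genes. The libraries did not overlap for 29 members in the higher and 2 in the lower direction, against 18.3% and 16.5% of all genes. Of the calls, 10 were made against both other groups, 3 against control only and 5 against Zscan4f3A only, and both comparisons use the same Zscan4f libraries. The count was 7 with only the 2 groups compared in the fit and 23 with coverage per aligned gigabase, and it ran from 8 to 14 with 1 library left out. As above, these counts cannot be set against the 15.1%, which belongs to the reported fit.

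In cells with Zscan4f3A against control, limma called 0 of 54 members, while 0.0316% of all genes (5 genes) were called, 0.0189% higher and 0.0126% lower. At an unadjusted p under 0.05 there were 3 members, Eif4g3, Eif3e and Eif3a, all with lower means with Zscan4f3A, where 8.77% of all genes passed that level in either direction and 4.97% in the lower one. The members' median log2 fold change was -0.03, against -0.01 over all genes, and 19 were above 0, against 46.3% of all genes. All Zscan4f3A libraries lay above all control libraries for 2 members and below for 6, against 6.29% and 9.09% of all genes. Without control replicate 1 the count of calls was 1, which was Eif4g3 (adjusted p = 0.0346).

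**Figure D3:**
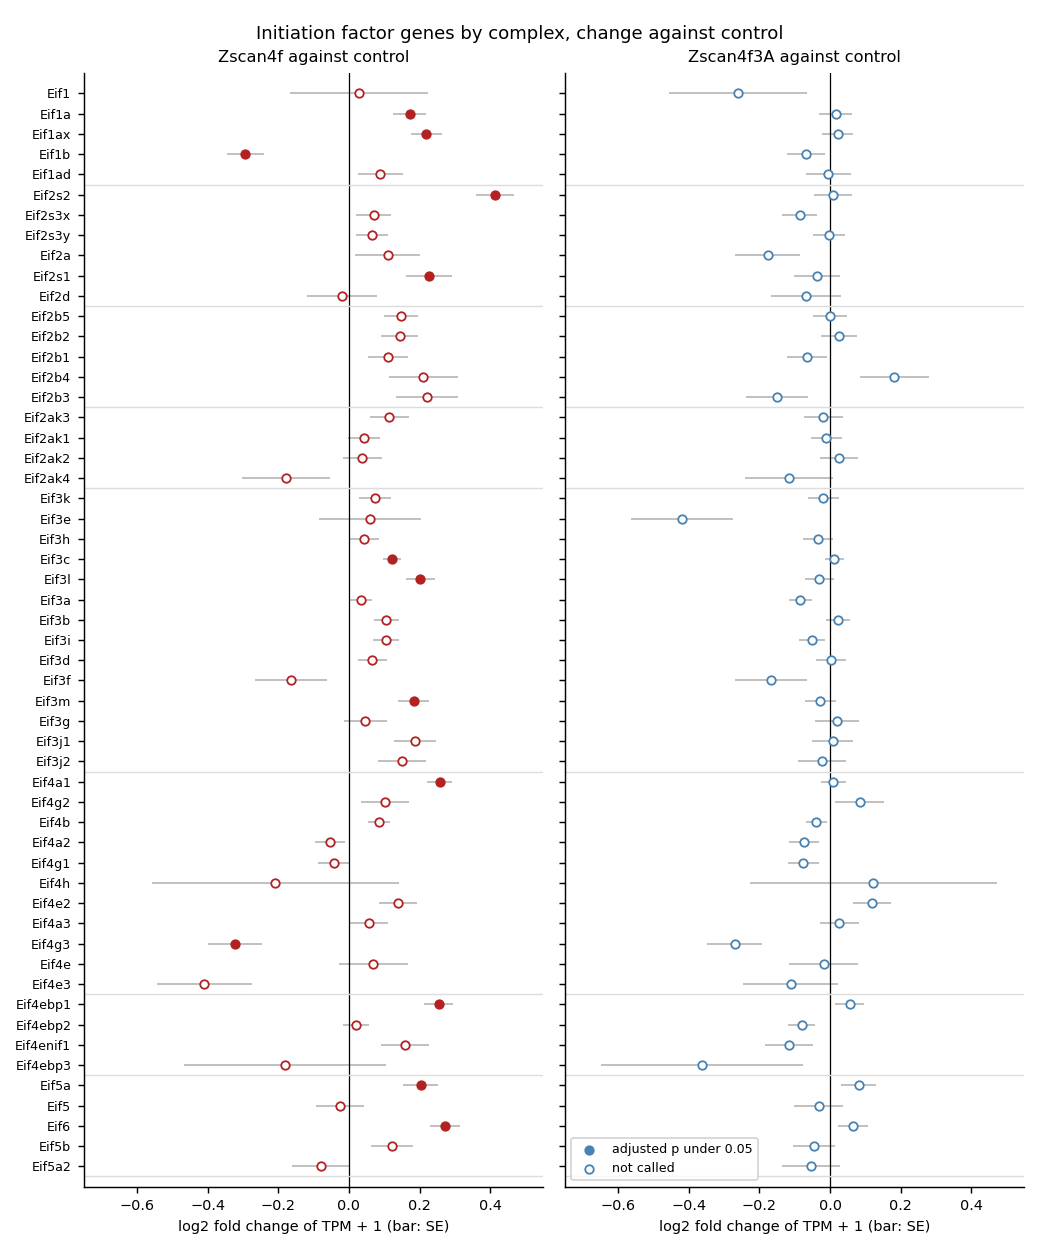
Log2 fold change on the log2(TPM + 1) scale of each of the 54 members, grouped by factor and ordered by mean level, for Zscan4f against control on the left and Zscan4f3A against control on the right; both use the same control libraries, bars are the SE of the limma fit and filled points passed an adjusted p under 0.05. On the left 42 of 54 points lie above 0 and 13 are filled, and on the right 19 lie above 0 and 0 are filled.

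The largest rise among the called members was in eIF2, the carrier of initiator tRNA. Eif2s2 (ENSMUSG00000074656.12; chromosome 2, 154871410 to 154892935, with all coordinates on GRCm38), its beta subunit, had 217, 221 and 217 TPM in the Zscan4f libraries, 171, 173 and 149.9 TPM in the Zscan4f3A libraries and 165, 166 and 161 TPM in the control libraries. The Zscan4f libraries lay close together and above the other 6, while the Zscan4f3A and control libraries overlapped. With Zscan4f its mean was 33.3% above control, a log2 fold change of 0.41 ± 0.05 (SE) with an adjusted p of 0.00100, and the log2 fold change against Zscan4f3A was 0.41 ± 0.05 with an adjusted p of 0.00155. Zscan4f3A against control gave 0.01 ± 0.05, adjusted p = 0.978.

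Eif2s1 (ENSMUSG00000021116.10; chromosome 12, 78861819 to 78887010), the alpha subunit that the stress kinases phosphorylate, had 69.8, 76.01 and 66.8 TPM in the Zscan4f libraries, 59.3, 62.96 and 54.6 TPM in the Zscan4f3A libraries and 60.5, 58.6 and 62.00 TPM in the control libraries. Its Zscan4f libraries did not overlap the others, and its log2 fold change was 0.23 ± 0.07 against control (adjusted p = 0.0442) and 0.26 ± 0.07 against Zscan4f3A (adjusted p = 0.0291). The call against control was lost without any 1 control library, without Zscan4f replicate 1 or 2 and without Zscan4f3A replicate 1, with an adjusted p up to 0.136. The call against Zscan4f3A was lost without Zscan4f replicate 1 or 2 or Zscan4f3A replicate 1 or 3, up to 0.0922.

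The gamma subunit, which binds the tRNA and GTP, comes from paired genes on the sex chromosomes. Eif2s3x had 112, 106 and 108 TPM in the Zscan4f libraries, 99.7, 101 and 91.01 TPM in the Zscan4f3A libraries and 102, 101 and 107 TPM in the control libraries. Eif2s3y had 82.8, 80.7 and 82.7 TPM in the Zscan4f libraries, 73.8, 80.2 and 80.9 TPM in the Zscan4f3A libraries and 80.04, 75.7 and 79.6 TPM in the control libraries. Neither was called in any comparison, and the share of Eif2s3y in their sum was 43.1% ± 0.475 with Zscan4f, 44.6% ± 2.30 with Zscan4f3A and 43.2% ± 0.723 in control. The ratio of Eif2s2 to Eif2s1 was 3.09 ± 0.175 with Zscan4f, 2.80 ± 0.0822 with Zscan4f3A and 2.71 ± 0.115 in control, so the beta subunit's level exceeded that of the alpha subunit in all groups, as TPM is a per-length scale. Eif2a and Eif2d, which can bring tRNA to the ribosome without eIF2, were not called. Eif2d, the lowest of these genes, had 45.3, 42.5 and 43.5 TPM in the Zscan4f libraries, 35.8, 46.6 and 45.2 TPM in the Zscan4f3A libraries and 42.9, 42.1 and 48.3 TPM in the control libraries, with overlapping groups.

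The 5 eIF2B subunit genes each had a positive log2 fold change with Zscan4f against control, from 0.11 to 0.22, but 0 of 5 passed the adjusted threshold, while 3 had an unadjusted p under 0.05, a level that 31.1% of all genes passed. In 4 of the 5 every Zscan4f library lay above every control library, as in 19.0% of all genes. Some of them passed against control under other settings: Eif2b5 with FPKM (adjusted p = 0.0294), with only the 2 groups compared in the fit (0.0401), with coverage per aligned gigabase (0.00905) and without Zscan4f3A replicate 3 (0.0250), Eif2b3 with coverage (0.0213) and without Zscan4f replicate 1 (0.0385), and Eif2b2 with coverage (0.00731). The highest, Eif2b5, which encodes the subunit with the exchange activity, had 75.9, 75.3 and 72.8 TPM in the Zscan4f libraries, 70.2, 68.8 and 63.1 TPM in the Zscan4f3A libraries and 66.4, 68.4 and 67.2 TPM in the control libraries, a log2 fold change of 0.15 ± 0.05 against control (adjusted p = 0.0638). The lowest, Eif2b3 (ENSMUSG00000028683.14; chromosome 4, 117019402 to 117087306), encoding the gamma subunit, had 24.2, 30.99 and 27.3 TPM in the Zscan4f libraries, 21.1, 19.7 and 22.02 TPM in the Zscan4f3A libraries and 22.98, 24.3 and 22.8 TPM in the control libraries. It was the only one called, against Zscan4f3A, at 0.37 ± 0.09 with an adjusted p of 0.0233, and against control it had 0.22 ± 0.09 with 0.121. That call was lost without Zscan4f replicate 2 or 3 or Zscan4f3A replicate 1 or 2 (adjusted p up to 0.0735), and also with no filter, with only the 2 groups compared and with coverage per aligned gigabase (up to 0.0916).

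None of the 4 kinases of eIF2alpha was called in any comparison (0 of 4), and at an unadjusted p under 0.05 there were 0 against control for either form and 1 for Zscan4f against Zscan4f3A, where 29.5% of all genes passed that level. Eif2ak3, known as PERK and tied to stress in the endoplasmic reticulum, was the highest, with 40.8, 40.1 and 38.2 TPM in the Zscan4f libraries, 37.9, 35.6 and 34.7 TPM in the Zscan4f3A libraries and 38.3, 34.9 and 36.5 TPM in the control libraries. Eif2ak4, known as GCN2 and tied to amino acid shortage, was the lowest, with 14.2, 10.8 and 12.6 TPM in the Zscan4f libraries, 13.4, 12.8 and 12.9 TPM in the Zscan4f3A libraries and 13.05, 12.8 and 17.1 TPM in the control libraries. Eif2ak1, the haem-regulated kinase, averaged 36.4 ± 0.513 TPM with Zscan4f, 35.1 ± 0.912 TPM with Zscan4f3A and 35.3 ± 1.18 TPM in control, and Eif2ak2, the kinase activated by double-stranded RNA, averaged 28.8 ± 1.34 TPM with Zscan4f, 28.5 ± 1.30 TPM with Zscan4f3A and 27.98 ± 0.510 TPM in control (SD, n = 3 each). In these 4 genes the Zscan4f and control libraries overlapped.

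Of the 14 eIF3 genes, 13 had a positive log2 fold change with Zscan4f against control and 3 rose, Eif3l, Eif3c and Eif3m, while 0 fell. Of all genes 49.5% were above 0 and 18.5% were called, 8.74% higher, against 21.4% of the eIF3 genes called. Against Zscan4f3A all 14 eIF3 genes were above 0 and 5 were called higher, though Eif3f was below 0 with FPKM, median-of-ratios scaling and coverage. There 50.4% of all genes were above 0 and 15.1% were called, 7.48% higher, against 35.7% of the eIF3 genes called. Eif3l (ENSMUSG00000033047.5; chromosome 15, 79075179 to 79094405) had 283, 279 and 285 TPM in the Zscan4f libraries, 231, 248 and 241 TPM in the Zscan4f3A libraries and 234, 252 and 249.7 TPM in the control libraries. Its Zscan4f libraries lay clear of the rest, and its log2 fold change was 0.20 ± 0.04 against control (adjusted p = 0.00852) and 0.23 ± 0.04 against Zscan4f3A (adjusted p = 0.00541). Eif3c (ENSMUSG00000030738.11; chromosome 7, 126546455 to 126566411), one of the core subunits, had 309.7, 302 and 304 TPM in the Zscan4f libraries, 284, 284 and 281 TPM in the Zscan4f3A libraries and 280.1, 282 and 279 TPM in the control libraries. The libraries of each group agreed closely, and the difference from control was small at 0.12 ± 0.03, adjusted p = 0.0118. Against Zscan4f3A it was 0.11 ± 0.03, adjusted p = 0.0234, which was lost without any 1 Zscan4f library or without Zscan4f3A replicate 1 or 2 (up to 0.0790).

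Eif3m (ENSMUSG00000027170.12; chromosome 2, 104999656 to 105017080) had 183, 184 and 177 TPM in the Zscan4f libraries, 160.0, 152 and 158 TPM in the Zscan4f3A libraries and 158, 153 and 169 TPM in the control libraries. All Zscan4f libraries lay above the others, with a log2 fold change of 0.18 ± 0.04 against control (adjusted p = 0.0200) and 0.21 ± 0.04 against Zscan4f3A (adjusted p = 0.0132). The call against control was lost without control replicate 1 or 2 or without Zscan4f replicate 1 or 2, up to 0.0675. Eif3i (ENSMUSG00000028798.16; chromosome 4, 129591960 to 129600648), which sits with Eif3b and Eif3g at one side of the complex, had 211, 200.2 and 210.3 TPM in the Zscan4f libraries, 190.1, 181 and 187 TPM in the Zscan4f3A libraries and 189, 197 and 192 TPM in the control libraries. It was called against Zscan4f3A at 0.16 ± 0.04, adjusted p = 0.0215, and had 0.11 ± 0.04 against control, adjusted p = 0.0792. The call was lost without Zscan4f replicate 1 or 3 or Zscan4f3A replicate 2 (up to 0.0781).

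Eif3a (ENSMUSG00000024991.7; chromosome 19, 60761116 to 60790693 in the deposited files), the largest core subunit, had 245, 242 and 246 TPM in the Zscan4f libraries, 231, 225 and 218 TPM in the Zscan4f3A libraries and 239.6, 234 and 241 TPM in the control libraries. Its Zscan4f libraries lay just above control and its Zscan4f3A libraries just below. The log2 fold change was 0.12 ± 0.03 for Zscan4f against Zscan4f3A (adjusted p = 0.0396), 0.03 ± 0.03 for Zscan4f against control (adjusted p = 0.534) and -0.08 ± 0.03 for Zscan4f3A against control (adjusted p = 0.518). The one call was lost in 8 of 9 fits that left out a library, all but that without Zscan4f3A replicate 1, up to 0.115.

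The most abundant eIF3 gene, Eif3k, had 365, 368 and 362 TPM in the Zscan4f libraries, 359, 341 and 327 TPM in the Zscan4f3A libraries and 354, 358 and 329 TPM in the control libraries, with a log2 fold change of 0.07 ± 0.04 against control that was not called. The lowest were the paired genes of the loosely bound subunit. Eif3j1 had 33.3, 30.7 and 31.03 TPM in the Zscan4f libraries, 29.3, 28.4 and 25.9 TPM in the Zscan4f3A libraries and 27.3, 27.8 and 27.9 TPM in the control libraries, not called (adjusted p = 0.0601 against control). Eif3j2 had 24.8, 23.7 and 21.1 TPM in the Zscan4f libraries, 20.1, 20.1 and 21.1 TPM in the Zscan4f3A libraries and 19.9, 21.3 and 21.1 TPM in the control libraries, also not called. Of the 50-base stretches in Eif3j2 transcripts, 90.8% occur in Eif3j1 transcripts and 36.6% the other way round, so the division of reads between these genes is uncertain.

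In the cap-binding machinery the helicase gene Eif4a1 changed most clearly. Eif4a1 (ENSMUSG00000059796.16; chromosome 11, 69666936 to 69672423) had 553, 574 and 558 TPM in the Zscan4f libraries, 496, 465 and 459 TPM in the Zscan4f3A libraries and 471, 474 and 464 TPM in the control libraries. The Zscan4f libraries stood above all others, and Zscan4f3A and control overlapped. With Zscan4f the mean was 19.5% above control, a log2 fold change of 0.26 ± 0.04 with an adjusted p of 0.00131, and against Zscan4f3A it was 0.25 ± 0.04 with 0.00214. Zscan4f3A against control gave 0.01 ± 0.04 (adjusted p = 0.959). The pseudogene Eif4a-ps4, left out here, has 95.7% of its 50-base stretches in Eif4a1 and held 4.68 to 15.1 TPM over the 9 libraries.

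The paralog Eif4a2 had 294, 287 and 278 TPM in the Zscan4f libraries, 283, 296 and 269 TPM in the Zscan4f3A libraries and 290.0, 297 and 305 TPM in the control libraries, with overlapping groups and no call. Eif4a3, a helicase of the exon junction complex, had 112, 123 and 109.6 TPM in the Zscan4f libraries, 117, 110.4 and 110.5 TPM in the Zscan4f3A libraries and 116, 110.4 and 106 TPM in the control libraries, also overlapping and not called. The share of Eif4a1 in the sum of the 3 genes was 58.3% ± 0.684 with Zscan4f, 54.5% ± 1.02 with Zscan4f3A and 53.5% ± 0.414 in control (SD, n = 3 each). Eif4b (ENSMUSG00000058655.9; chromosome 15, 102073773 to 102097173), a cofactor of the helicase, had 322, 316 and 326 TPM in the Zscan4f libraries, 299, 289.7 and 295 TPM in the Zscan4f3A libraries and 311, 299.8 and 298 TPM in the control libraries. It was called against Zscan4f3A at 0.12 ± 0.03, adjusted p = 0.0266, and had 0.09 ± 0.03 against control, adjusted p = 0.0889. Its call was lost without Zscan4f replicate 1 or 3 or Zscan4f3A replicate 2 (up to 0.0942).

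The cap-binding proteins themselves were not called. Eif4e, the limiting cap-binding protein, had 35.7, 36.7 and 36.8 TPM in the Zscan4f libraries, 29.7, 33.4 and 40.4 TPM in the Zscan4f3A libraries and 34.9, 32.9 and 36.2 TPM in the control libraries. Eif4e2, a relative that can repress the mRNA it binds, had 165, 178 and 159 TPM in the Zscan4f libraries, 174, 162 and 159 TPM in the Zscan4f3A libraries and 145, 156 and 153 TPM in the control libraries. For Eif4e2 every library of either form lay above every control library, as in 19.0% of all genes for Zscan4f and 6.29% for Zscan4f3A. The adjusted p against control was 0.119 for Zscan4f and 0.575 for Zscan4f3A. Eif4e3 had 2.89, 3.73 and 3.63 TPM in the Zscan4f libraries, 5.07, 3.51 and 4.78 TPM in the Zscan4f3A libraries and 5.07, 4.77 and 4.69 TPM in the control libraries, with every Zscan4f library below every control library and a log2 fold change of -0.41 ± 0.13 that did not pass (adjusted p = 0.0688).

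Among the eIF4G scaffolds, Eif4g3 (ENSMUSG00000028760.16; chromosome 4, 137993022 to 138208508) was lower. It had 85.95, 86.4 and 85.8 TPM in the Zscan4f libraries, 89.2, 89.8 and 88.7 TPM in the Zscan4f3A libraries and 93.2, 115 and 117 TPM in the control libraries, so that control replicate 1 lay much closer to both overexpressing groups than the other control libraries. The log2 fold change was -0.32 ± 0.08 for Zscan4f (adjusted p = 0.0206) and -0.27 ± 0.08 for Zscan4f3A (adjusted p = 0.434), both against the same control libraries. The Zscan4f call was lost without control replicate 2 or 3 or any 1 Zscan4f library, up to 0.0738, and without control replicate 1 the adjusted p was 0.000440. Eif4g1, the main scaffold, had 289, 287 and 276 TPM in the Zscan4f libraries, 276, 284 and 273 TPM in the Zscan4f3A libraries and 289.5, 312 and 278 TPM in the control libraries and was not called. Eif4g2, which lacks the eIF4E-binding region, had 428, 439 and 456 TPM in the Zscan4f libraries, 446, 456 and 405 TPM in the Zscan4f3A libraries and 429, 435 and 370.3 TPM in the control libraries and was not called.

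Of the eIF4E-binding proteins, Eif4ebp1 (ENSMUSG00000031490.6; chromosome 8, 27260329 to 27276674), a classical mTORC1 substrate, had 108, 109 and 109 TPM in the Zscan4f libraries, 95.4, 94.4 and 93.4 TPM in the Zscan4f3A libraries and 95.7, 89.6 and 87.3 TPM in the control libraries. The Zscan4f libraries did not overlap those of either other group, with a log2 fold change of 0.25 ± 0.04 against control (adjusted p = 0.00284) and 0.20 ± 0.04 against Zscan4f3A (adjusted p = 0.0118). Against Eif4e, the ratio of Eif4ebp1 was 2.98 ± 0.0390 with Zscan4f, 2.78 ± 0.451 with Zscan4f3A and 2.62 ± 0.183 in control. Eif4ebp2 had 58.2, 56.7 and 55.8 TPM in the Zscan4f libraries, 53.2, 53.1 and 52.8 TPM in the Zscan4f3A libraries and 57.1, 54.8 and 56.6 TPM in the control libraries and was not called.

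Eif4ebp3 had 1.21, 1.51 and 2.36 TPM in the Zscan4f libraries, 0.663, 1.19 and 2.51 TPM in the Zscan4f3A libraries and 2.34, 2.33 and 1.45 TPM in the control libraries, with overlapping groups, and it lies within Ankhd1 on the same strand, so its reads cannot be told from those of Ankhd1 there. The share of Eif4ebp1 in the sum of the 3 binding proteins was 64.9% ± 0.397 with Zscan4f, 63.4% ± 0.563 with Zscan4f3A and 60.9% ± 0.810 in control. Eif4enif1 (ENSMUSG00000020454.17; chromosome 11, 3202392 to 3244588), which carries eIF4E into the nucleus and into repressed granules, had 57.8, 62.4 and 56.7 TPM in the Zscan4f libraries, 46.8, 47.99 and 50.9 TPM in the Zscan4f3A libraries and 48.3, 56.8 and 53.3 TPM in the control libraries. It was called against Zscan4f3A at 0.27 ± 0.07, adjusted p = 0.0288, and had 0.16 ± 0.07 against control, adjusted p = 0.153. The call was lost without any 1 Zscan4f library or without Zscan4f3A replicate 1 or 2 (up to 0.0968).

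The factors of start codon choice moved in both directions. Eif1b (ENSMUSG00000006941.5; chromosome 9, 120492232 to 120495330), a paralog of Eif1, had 44.8, 39.9 and 42.8 TPM in the Zscan4f libraries, 51.6, 48.9 and 48.95 TPM in the Zscan4f3A libraries and 54.1, 51.1 and 51.6 TPM in the control libraries. All Zscan4f libraries lay below the rest, with a log2 fold change of -0.29 ± 0.05 against control (adjusted p = 0.00565) and -0.23 ± 0.05 against Zscan4f3A (adjusted p = 0.0235). The call against Zscan4f3A was lost without Zscan4f replicate 2 or 3 or Zscan4f3A replicate 1, up to 0.0715. In the sum of Eif1 and Eif1b, Eif1b held 9.93% ± 0.516 with Zscan4f, 13.95% ± 4.11 with Zscan4f3A and 12.2% ± 0.365 in control (SD, n = 3 each), where the Zscan4f3A value carries the low Eif1 of replicate 3.

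Eif1ax (ENSMUSG00000067194.6; chromosome X, 159372178 to 159389928), one of the genes for eIF1A, had 55.7, 54.7 and 52.7 TPM in the Zscan4f libraries, 48.6, 48.00 and 45.3 TPM in the Zscan4f3A libraries and 47.3, 45.6 and 46.8 TPM in the control libraries. The Zscan4f libraries were clear of the others, with a log2 fold change of 0.22 ± 0.04 against control (adjusted p = 0.00974) and 0.20 ± 0.04 against Zscan4f3A (adjusted p = 0.0191), and the call against Zscan4f3A was lost without Zscan4f replicate 1 or 2 or Zscan4f3A replicate 3 (up to 0.0658). Eif1a (ENSMUSG00000057561.9; chromosome 18, 46597704 to 46610225 in the deposited files), the other eIF1A gene, had 169.7, 168 and 166 TPM in the Zscan4f libraries, 156, 155 and 141 TPM in the Zscan4f3A libraries and 144, 148 and 154 TPM in the control libraries. It was called against control at 0.17 ± 0.05, adjusted p = 0.0343, and not against Zscan4f3A, where it had 0.16 ± 0.05 with 0.0571. That call was lost without control replicate 1 or 2 or any 1 Zscan4f library (up to 0.111) and with no filter. The share of Eif1ax in the eIF1A sum was 24.5% ± 0.304 with Zscan4f, 23.9% ± 0.380 with Zscan4f3A and 23.8% ± 0.752 in control. Eif1ad, the lowest gene here, had 20.4, 20.7 and 23.2 TPM in the Zscan4f libraries, 20.04, 20.8 and 19.1 TPM in the Zscan4f3A libraries and 19.7, 20.1 and 20.3 TPM in the control libraries and was not called.

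At the joining step, Eif6 (ENSMUSG00000027613.15; chromosome 2, 155819832 to 155826925), which binds the large subunit and keeps it from joining too early, had 102, 107 and 102 TPM in the Zscan4f libraries, 89.9, 90.5 and 89.6 TPM in the Zscan4f3A libraries and 87.7, 88.6 and 81.8 TPM in the control libraries. The Zscan4f libraries lay above all others, and the Zscan4f3A libraries lay narrowly above control. The log2 fold change was 0.27 ± 0.04 for Zscan4f against control (adjusted p = 0.00244), 0.21 ± 0.04 for Zscan4f against Zscan4f3A (adjusted p = 0.0118) and 0.07 ± 0.04 for Zscan4f3A against control (adjusted p = 0.665).

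Eif5a (ENSMUSG00000078812.10; chromosome 11, 69916714 to 69921958), the hypusine-bearing factor that also helps elongation, had 601, 601 and 655 TPM in the Zscan4f libraries, 551, 563 and 592 TPM in the Zscan4f3A libraries and 509.6, 554 and 549 TPM in the control libraries. Zscan4f replicate 3 was the highest library and control replicate 1 the lowest, and the call against control, 0.20 ± 0.05 with an adjusted p of 0.0218, was lost without either of them (up to 0.0728). Against Zscan4f3A it had 0.12 ± 0.05, adjusted p = 0.140. Its paralog Eif5a2, the lowest gene here, had 13.2, 13.8 and 13.6 TPM in the Zscan4f libraries, 14.3, 14.8 and 12.4 TPM in the Zscan4f3A libraries and 14.00, 13.5 and 15.6 TPM in the control libraries and was not called. Eif5, which triggers GTP hydrolysis on eIF2, averaged 158 ± 3.56 TPM with Zscan4f, 158 ± 15.1 TPM with Zscan4f3A and 161 ± 8.81 TPM in control and was not called. Eif5b, the GTPase of subunit joining, averaged 56.2 ± 4.64 TPM with Zscan4f, 49.8 ± 1.33 TPM with Zscan4f3A and 51.4 ± 0.647 TPM in control and was not called (SD, n = 3 each).

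**Figure D4:**
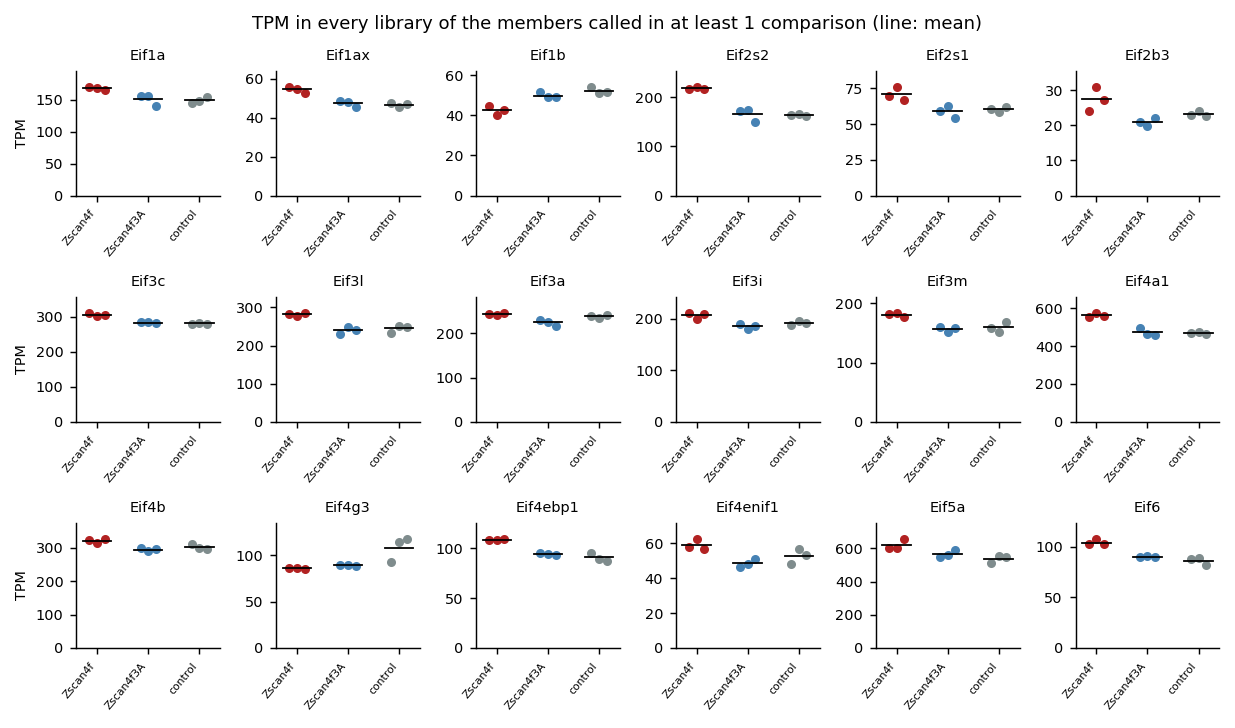
TPM of each of the 18 members called in at least 1 comparison, with 1 panel per gene; points are libraries and lines are group means, with Zscan4f, Zscan4f3A and control from left to right. Eif2s2 and Eif4a1 stand clear of both other groups with Zscan4f, and Eif1b lies below them.

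Of the 13 calls against control, 8 were kept without any 1 library and under each of the 7 other settings tried: Eif2s2, Eif4a1, Eif6, Eif4ebp1, Eif1b, Eif3l, Eif1ax and Eif3c. Of the 15 calls against Zscan4f3A, 6 were kept in the same way: Eif2s2, Eif4a1, Eif3l, Eif6, Eif4ebp1 and Eif3m. Beside the libraries named above, 4 calls against control were lost with no filter on low values, those of Eif2s1, Eif4g3, Eif1a and Eif5a. Against Zscan4f3A, the calls of Eif4enif1, Eif2s1, Eif3a and Eif2b3 were lost with no filter, and those of Eif1b, Eif2s1, Eif3a, Eif2b3, Eif3i, Eif3c, Eif4b and Eif1ax with only the 2 groups compared. No called member changed sign under any of these settings (0). In Zscan4f3A against control, which uses the same control libraries, the log2 fold changes of the first 8 ran from -0.07 for Eif1b to 0.07 for Eif6, with adjusted p from 0.665 to 0.978.

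Genes that work beside the initiation factors are given by list, where 18.5% of all genes were called for Zscan4f against control and 15.1% for Zscan4f against Zscan4f3A. Of 21 partners at the cap and the poly(A) tail, 1 rose and 3 fell with Zscan4f against control. Gigyf1, a partner of Eif4e2, fell by 0.26 on the log2 scale (adjusted p = 0.00553), and Pdcd4, an inhibitor of Eif4a1, fell by 0.22 (adjusted p = 0.0161). Pdcd4 had 55.4, 54.6 and 53.6 TPM in the Zscan4f libraries, 64.1, 64.4 and 57.7 TPM in the Zscan4f3A libraries and 62.9, 63.4 and 64.3 TPM in the control libraries, so its Zscan4f libraries lay below all others. Pabpc1, the main poly(A)-binding protein, fell by 0.10 (adjusted p = 0.0420), and Ncbp1, of the nuclear cap-binding complex, rose by 0.14 (adjusted p = 0.0421). Against Zscan4f3A 0 rose and 3 fell, Gigyf1, Pdcd4 and Paip2, an inhibitor of the poly(A)-binding protein, which fell by 0.43 (adjusted p = 0.0142).

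In the list on start sites and recycling, which has 15 names and 16 gene IDs because Rps6kb2 has 2, 1 ID rose with Zscan4f against control, Fau, a ribosomal protein gene, at 0.15 ± 0.03 (adjusted p = 0.00884), and 0 fell. Of 20 genes of the integrated stress response, which is the programme that eIF2alpha phosphorylation starts, 1 rose and 1 fell in both comparisons of Zscan4f. Ddit4, an inhibitor of mTORC1, had 116, 112 and 119 TPM in the Zscan4f libraries, 100.1, 97.3 and 99.9 TPM in the Zscan4f3A libraries and 91.6, 96.3 and 87.1 TPM in the control libraries and rose by 0.33 on the log2 scale against control (adjusted p = 0.00122). Atf5 had 134, 136 and 136 TPM in the Zscan4f libraries, 166, 173 and 198 TPM in the Zscan4f3A libraries and 169, 175 and 159.5 TPM in the control libraries and fell by 0.31 (adjusted p = 0.0111). Atf4, whose mRNA is translated when eIF2alpha is phosphorylated, had 171, 142 and 143 TPM in the Zscan4f libraries, 125, 183 and 196 TPM in the Zscan4f3A libraries and 194, 193 and 190.2 TPM in the control libraries, with the Zscan4f libraries below control and an adjusted p of 0.167.

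Of 20 mTORC1 genes, 0 rose and 2 fell with Zscan4f against control, the Rag GTPase gene Rragd at -0.61 ± 0.14 (adjusted p = 0.0195) and Tsc1, of the complex that inhibits Rheb, at -0.24 ± 0.07 (adjusted p = 0.0405). Against Zscan4f3A 1 rose, Rheb, the GTPase that activates mTORC1, at 0.11 ± 0.03, and 1 fell, Tsc2, the partner of Tsc1, at -0.26 ± 0.06. Of 13 genes of elongation and release, 2 rose and 1 fell against control: Pelo, a rescue factor for stalled ribosomes, at 0.28 ± 0.07, Eef1e1, of the tRNA synthetase complex, at 0.22 ± 0.06, and Eef2k, the kinase of elongation factor eEF2, at -0.14 ± 0.04. Against Zscan4f3A 1 rose, the elongation factor gene Eef1a1, at 0.20 ± 0.04. Of 9 reprogramming genes, which include the OSKM factors and the Myc network, 1 fell in both comparisons, Sox2, at -0.28 ± 0.06 against control and -0.30 ± 0.06 against Zscan4f3A. Myc averaged 58.6 ± 0.717 TPM with Zscan4f, 61.4 ± 8.54 TPM with Zscan4f3A and 55.8 ± 1.47 TPM in control and was not called (SD, n = 3 each). Klf4 averaged 273 ± 18.2 TPM with Zscan4f, 292 ± 20.9 TPM with Zscan4f3A and 286 ± 29.6 TPM in control and Pou5f1, which encodes Oct4, averaged 13.9 ± 1.57 TPM with Zscan4f, 13.7 ± 0.181 TPM with Zscan4f3A and 15.8 ± 2.26 TPM in control, and neither was called. The levels of Sox2, Myc, Klf4 and Pou5f1 are per gene and do not separate any OSKM transgene from the endogenous gene. In Zscan4f3A against control, 0 genes of these 6 lists were called.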

How the data were processed

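Reads of 9 TruSeq RNA libraries were aligned with HISAT2 2.1.0 and quantified with StringTie, per the submitters' processing notes; StringTie's version, the build and the annotation release are not stated there. The deposited TPM values are per length and per library and were the main unit. The deposited FPKM values and the deposited coverage (a signal, mean read depth) served as alternatives. No deposited values were counts, so no count test was run and precision is given as SD over 3 libraries. Aligned gigabases (3.31 to 8.39) were derived as the most common ratio of coverage to FPKM in a library. Only 22.2% to 23.9% of the genes used lay within 1% of that ratio, so these depths are estimates. Of 36 library pairs, 0 were identical. Of 54 members, 51 have the same coordinates in GENCODE M21, so coordinates are given on GRCm38. Values were summed per gene ID.

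The 15837 genes with 1 TPM or more in 3 or more libraries were fitted as log2(TPM + 1) with limma 3.58.1 in R 4.3.3, with a variance trend, all 9 libraries, two-sided tests and Benjamini-Hochberg adjustment; members were read from that fit. Fold changes on this scale understate changes of low genes. Whether strand was used in assigning reads is not stated. Tables used pandas 2.3.3 and numpy 2.4.6 and figures matplotlib 3.10.9, in Python 3.11.15. The code was tested on simulated data. Values in each library are given for called members, for the highest and lowest gene of each factor group and for paralog sets. Eif4h, Eif3e and Eif3f were singled out after their values were seen. Members and lists were chosen with earlier results of these data known. Alternatives were a pseudocount of 0.1, no filter, FPKM, median-of-ratios scaling, only the 2 groups compared, the replicate number as a block and leaving out each library. Coverage per aligned gigabase was chosen after seeing the data.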

Additional observations from a re-analysis of the deposited data

Results flagged for a closer look

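For 2 of the 54 members (3.70%) every Zscan4f library lay above every control library while every Zscan4f3A library lay below every control library, with the same control libraries in both comparisons. The same order of libraries was found in 72 of 15837 genes (0.455%). The reverse order, Zscan4f below control below Zscan4f3A, was found in 59 genes (0.373%) and in 0 members. The members are given for this order, so the values below describe it and are no test of it. In the limma fit neither was called against control for either form. The adjusted p for Zscan4f and then Zscan4f3A was 0.534 and 0.518 for Eif3a and 0.200 and 0.841 for Eif5b. For Zscan4f against Zscan4f3A, Eif3a was called (adjusted p = 0.0396), which was kept in 1 of 9 fits that left out a library. Eif5b was not called there (adjusted p = 0.0947). Eif3a, a core subunit of eIF3, averaged 244 ± 1.86 TPM with Zscan4f, 225 ± 6.86 TPM with Zscan4f3A and 238 ± 3.84 TPM in control (SD, n = 3 each), and the difference of the effects, Zscan4f against Zscan4f3A, was 0.12 on the log2 scale. Eif5b, the GTPase of subunit joining, had 54.1, 61.5 and 52.95 TPM in the Zscan4f libraries, 50.5, 50.6 and 48.2 TPM in the Zscan4f3A libraries and 52.1, 50.9 and 51.1 TPM in the control libraries, and the difference was 0.17.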

How the results depend on the processing

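Counts of called members are given in the order Zscan4f against control, then Zscan4f3A against control, then Zscan4f against Zscan4f3A, where the reported ones were 13, 0 and 15. The shares of all genes called that stand above belong to the reported fit only and are not given for the other settings. Coverage per aligned gigabase, chosen after seeing the data, gave 21, 0 and 23, and the cause was not tested. The fit of only the 2 groups compared gave 15, 0 and 7, with fewer libraries to estimate the spread. FPKM gave 17, 0 and 16, median-of-ratios scaling 14, 0 and 15, a pseudocount of 0.1 gave 13, 0 and 15, and no filter 9, 0 and 11. Leaving out 1 library gave 9 to 15, 0 to 1 and 8 to 14. Replicate numbers did not pair the libraries, since same-numbered libraries had correlations of their deviations from -0.0792 to 0.0533, and the fit with the replicate block gave 11, 0 and 12. Under that block Eif2s1 and Eif1a were not called against control, nor Eif3a, Eif3i and Eif3c against Zscan4f3A. No called member changed sign under any alternative run (0). Of the members not called, 8 of 41, 30 of 54 and 15 of 39 changed sign under at least 1 alternative, and 0 of them were called there. For Zscan4f against control, coverage turned the sign of Eif4g2 (0.10 with TPM, -0.01 with coverage), Eif4e, Eif4g1 and Eif5. FPKM and median-of-ratios scaling moved the median of all genes by less than 0.1 on the log2 scale. The lowest depth was that of Zscan4f3A replicate 3, at 3.31 gigabases.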

Other observations

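The pseudogene Eif3s6-ps2, left out of the members, was listed at 54.5, 46.8 and 52.6 TPM in the Zscan4f libraries, 47.1, 45.1 and 39.2 TPM in the Zscan4f3A libraries and 47.7, 47.7 and 41.3 TPM in the control libraries. It shares 18.6% of its 50-base stretches with Eif3e transcripts. Eif4a-ps4 was at 6.51, 7.42 and 5.22 TPM with Zscan4f, 5.30, 6.05 and 15.1 TPM with Zscan4f3A and 4.68, 5.64 and 6.40 TPM in control, highest in Zscan4f3A replicate 3. Eif1-ps3 and Eif3s6-ps4 were listed at 0 in all libraries. Eif4enif1, Eif2a, Eif2b4 and Eif5b overlap a gene on the other strand (Drg1, Serp1, Snx17 and Rev1), whose level was 38.7 to 116 TPM.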
